A study of Glycine max with 20 samples.

Results

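RS2 (Glyma.06G179200), RS3 (Glyma.05G003900) and MIPS1 (Glyma.11G238800) are genes of raffinose and inositol synthesis in soybean, and they were followed in developing seeds at the level of RNA and of ribosome-bound RNA. The 3 genes were chosen by locus name, and their first cDNA model was used out of 55912 such primary models and 88515 models in all. The count tables annotate RS2 and RS3 only as members of the raffinose synthase family, and MIPS1 as a myo-inositol-1-phosphate synthase, so the names RS2, RS3 and MIPS1 do not come from the tables. RS2 has 1 further splice model, with nearly the same counts (0 to 79 against 0 to 81 per library), and 4 models of the 3 genes were listed in all. No nucleotide or protein sequence was used here.

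Raffinose and stachyose are galactosides of sucrose that legume seeds store late in development and that limit the feeding value of the meal. MIPS turns glucose 6-phosphate into inositol phosphate, the source of free inositol and of phytate, the phosphate store of the seed. Galactinol synthase joins inositol to galactose taken from UDP-galactose, and raffinose synthase moves that galactose to sucrose and releases inositol. In soybean, mutations of RS2 lower seed raffinose and stachyose, and a mutation of MIPS1 lowers both phytate and these sugars.

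The plants were greenhouse-grown soybean of the cultivar Williams, with no treatment compared, and each seed was dissected into cotyledon and seed coat. The cotyledon groups were C25 (seeds of 25 to 50 mg), C100 (100 to 200 mg) and C300 (300 to 400 mg), and the seed coat groups SC25 and SC100 came from seeds of the first 2 weight classes. Each group had control libraries of total RNA (CT) and ribosome footprint libraries (FP), which hold the fragments that ribosomes protect from nuclease. The labels name 2 biological replicates for each, and 18 of the 20 libraries were read, since the second footprint library was not analysed here for either C100 or C300. Footprints of these stages therefore rest on 1 library each and have no replicate check.

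Totals ranged from 7205928 to 32562521 counts per library. RPKM scales the count by the length of the cDNA model and by the total count of the library. A count of 0 allows up to 3 counts, and such limits cover counting error only. Marker genes were checked against the labelled tissues. The sum of 8 cotyledon markers (lectin, glycinins and conglycinins) was 2210 and 2715 RPKM in C25 CT, against 258 and 11.6 RPKM in SC25 CT and 180 and 229 RPKM in SC100 CT. The sum of 5 seed coat markers, enzymes of the flavonoid branch, was 90.6 to 356 RPKM in seed coat CT and at most 1.38 RPKM in cotyledon CT. These 5 genes came from a table that the study chose for high footprint to RNA ratios in C25, so a high C25 FP level of theirs was fixed by the choice and is given as a description. There were 3 libraries that stood apart. C25 FP replicate 2 held 32.6 RPKM of these 5 genes, with 0 of 5 at a count of 0, against 0.529 RPKM in replicate 1. SC25 CT replicate 1 held more of the cotyledon markers than replicate 2, and Spearman's rho of the pair was 0.61, against 0.889 to 0.958 in cotyledon CT. The other pairs were also below cotyledon CT, at 0.735 in SC100 CT and 0.714 to 0.815 in the FP pairs of C25, SC25 and SC100. SC100 CT replicate 1 listed 52.9% of all models at 0, against 23.3% in replicate 2.

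MIPS1 was by far the most abundant of the 3 genes per length, and its RNA was highest in the youngest cotyledons. It read 207 and 250 RPKM in C25 CT, 43.9 and 35.7 RPKM in C100 CT, and 27.4 and 25.5 RPKM in C300 CT. The 3 cotyledon groups did not overlap, and the order ran down with seed weight. On library totals the median log2 fold change of all models was -1.115 in C100 against C25 and 0.105 in C300 against C100. The share of all models whose 3 groups lie apart was not counted. In the seed coat MIPS1 read 64.9 and 42.9 RPKM in SC25 CT and 36.1 and 26.6 RPKM in SC100 CT. There SC25 CT replicate 1, with 64.9 RPKM, is the library with 258 RPKM of cotyledon markers. The seed coat groups did not overlap, but their difference did not pass the test (adjusted p = 0.514), and 0.0208% of all models passed it. Its mean RNA level was above 99.80% of primary models in C25 and above 99.33% in C300. Footprints followed the same order in cotyledons, with 110 and 64.0 RPKM in C25 FP, 22.5 RPKM in C100 FP and 19.6 RPKM in C300 FP. In seed coats the footprints were 43.3 and 16.8 RPKM in SC25 and 26.0 and 11.8 RPKM in SC100, and these overlap.

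RS2 RNA was low and was highest in the oldest cotyledons. It read 0.92 and 0.897 RPKM in C25 CT (46 and 33 counts), 1.01 and 0.574 RPKM in C100 CT (57 and 23 counts), and 1.54 and 2.24 RPKM in C300 CT (81 and 70 counts). Both C300 libraries lie above all 4 younger ones, which was not counted over all models, while C25 and C100 overlap. Its mean RNA level lay above 71.45% of primary models in C25 and above 93.03% in C300. Its footprints were 11 and 8 counts in C25 FP (0.259 and 0.159 RPKM), 34 counts in C100 FP (0.525 RPKM) and 40 counts in C300 FP (1.89 RPKM).

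RS2 in the seed coat differed between paired libraries. Its RNA read 0.95 and 0.796 RPKM in SC25 CT (81 and 19 counts), the same range as C25. In SC100 CT it had 0 counts in replicate 1, which allows up to 0.108 RPKM, and 17 counts (0.73 RPKM) in replicate 2. The footprint library with the same number as the empty one held 23 counts (0.754 RPKM), and SC100 FP replicate 2 held 5 counts (0.165 RPKM). SC100 CT replicate 1 is the library with 52.9% of models at 0, and its part in the RS2 value was not tested. SC25 FP held 7 and 3 counts.

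RS3 was nearly absent from cotyledons and present in seed coats. Its RNA read 4 and 4 counts in C25 CT (0.0835 and 0.114 RPKM), 7 and 0 counts in C100 CT and 10 and 5 counts in C300 CT. In SC25 CT it read 55 and 75 counts (0.673 and 3.28 RPKM), and in SC100 CT 70 and 78 counts (2.63 and 3.50 RPKM). Every seed coat CT library lies above every cotyledon CT library, the lowest being SC25 CT replicate 1, and this was not counted over all models. Footprints were 38 and 13 counts in SC25 FP and 79 and 37 counts in SC100 FP, that is 0.719 to 2.70 RPKM. In cotyledons they were 0 and 9 counts in C25 FP, 1 count in C100 FP and 0 counts in C300 FP, where 0 allows up to 0.148 RPKM. The 9 counts are in C25 FP replicate 2, which also held 32.6 RPKM of the 5 flavonoid genes chosen through C25 footprints, and the part of seed coat RNA in them was not tested.

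**Figure D1:**
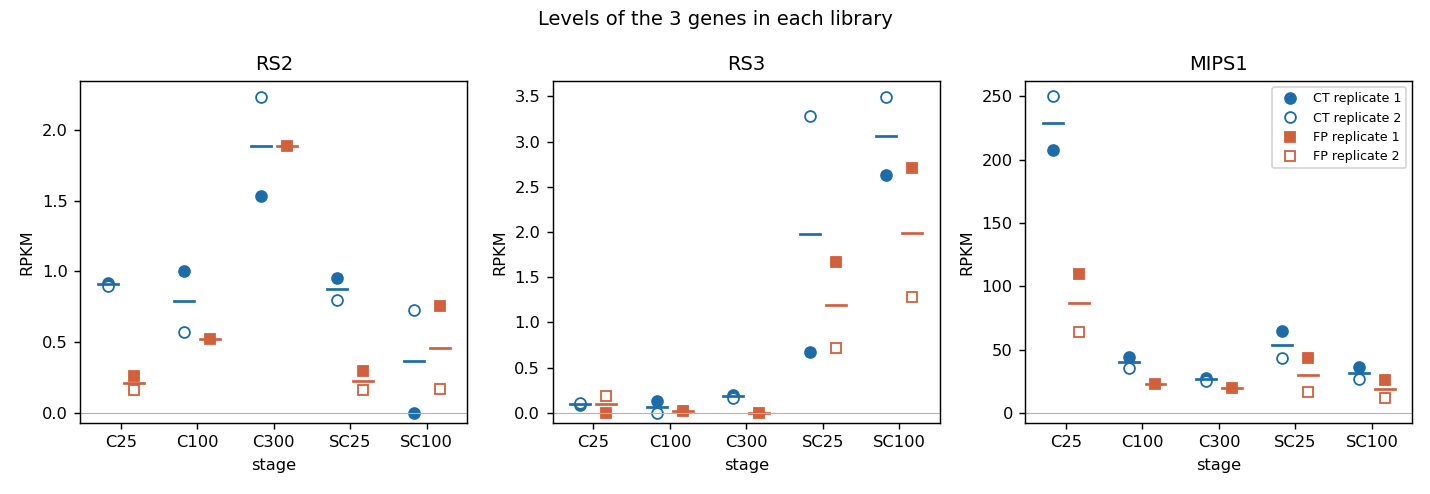
RPKM of RS2, RS3 and MIPS1 (vertical axes, linear and different in each panel) at each stage, with CT libraries as circles, FP libraries as squares, replicate 1 filled, replicate 2 open, and the mean as a short line. MIPS1 CT falls from 207 and 250 RPKM in C25 to 27.4 and 25.5 RPKM in C300, RS2 CT is highest in C300 at 1.54 and 2.24 RPKM, and RS3 CT is at 0.673 to 3.50 RPKM in seed coats.

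The first question was how RNA changed as cotyledons grew, in 1 fit of the 6 cotyledon CT libraries with edgeR's quasi-likelihood test. Folds are on the scale of TMM, a scaling that sets the bulk of models level between libraries, while RPKM uses the library total. The choice matters here. Scaling by totals instead of TMM moved the median log2 fold change of all models by -1.03 in C100 against C25, -0.95 in C300 against C25, 0.85 in SC100 against C100, 1.08 in SC25 against C25 footprints and -2.36 in FP against CT at C25, and by 0.01 in SC25 against C25 RNA.

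From C25 to C300, MIPS1 fell by 2.11 on the log2 scale (SE 0.23, 4.31-fold, adjusted p = 2.06e-06), and RS2 rose by 2.00 (SE 0.28, 3.99-fold, adjusted p = 3.897e-05). RS3 differed by 1.84 (SE 0.78) with an adjusted p of 0.0949. Thus 2 of 3 genes passed, where 24% of the 62839 models tested did. By library totals the same changes were -3.11 for MIPS1 and 1.04 for RS2, both still past the threshold, and all 12 alternatives kept both calls.

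The change was also fitted in its 2 steps, whose sizes were not compared by a test. From C25 to C100, MIPS1 fell by 1.45 (SE 0.23, adjusted p = 0.0001958), and 1 of 3 genes passed against 14.6% of all models. RS2 differed by 0.85 (SE 0.31, adjusted p = 0.0725), and by -0.18 with totals. It passed with no filter on counts (0.0204), without C300 CT replicate 1 (0.00992) and without C300 CT replicate 2 (0.0149). From C100 to C300, RS2 rose by 1.14 (SE 0.285, adjusted p = 0.0224), and 1 of 3 genes passed against 5.67% of all models. MIPS1 differed by -0.66 (SE 0.22, adjusted p = 0.1004) and RS3 by 1.25 (SE 0.81, adjusted p = 0.443). The RS2 call of this step was lost with DESeq2 (adjusted p = 0.0975), without C100 CT replicate 1 (0.163), without C100 CT replicate 2 (0.213) and without C300 CT replicate 2 (0.12). MIPS1 passed in this step with DESeq2 (0.0393) and without C300 CT replicate 2 (0.0419).

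The second question was how the seed coat differed from the cotyledon of the same weight class, in 1 fit of the 8 CT libraries of the 2 younger stages. RS3 RNA was higher in the seed coat at both stages, by 4.10 on the log2 scale in SC25 against C25 (SE 0.89, 17.1-fold, adjusted p = 0.00828) and by 4.58 in SC100 against C100 (SE 0.92, 23.9-fold, adjusted p = 0.00586). MIPS1 RNA was lower in SC25 than in C25 by 1.90 (SE 0.45, 3.73-fold, adjusted p = 0.0135). In SC100 against C100 it differed by -1.24 (SE 0.44, adjusted p = 0.121), and RS2 differed by 0.08 (SE 0.96) and -1.99 (SE 1.05) at the 2 stages with adjusted p of 0.972 and 0.317. That is 2 of 3 genes against 9.15% of all models at the younger stage, and 1 of 3 against 6.9% at the older.

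The RS3 call at SC25 was lost without C25 CT replicate 1 (adjusted p = 0.0556) and held in the other 13 of the 14 alternatives that tested it, and at SC100 it held in all 14. The size at SC100 is less certain, since C100 CT holds 7 and 0 counts: it was 3.996 without C100 CT replicate 2, and without replicate 1 the cotyledon side has 0 counts and the fitted 9.77 is no bound. The MIPS1 call at SC25 was lost without C25 CT replicate 1 (0.221), C25 CT replicate 2 (0.187), C100 CT replicate 1 (0.101), C100 CT replicate 2 (0.061) or SC100 CT replicate 1 (0.0714), and with primary models only (0.0563), with log2 fold changes of -1.54 to -1.64 in these settings. The call held without either SC25 CT library, but the size moved, to -2.76 without replicate 1, which holds cotyledon markers, and to -0.985 without replicate 2. In SC100 against C100, MIPS1 passed without SC25 CT replicate 1 (0.01) or replicate 2 (0.0149).

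Within the seed coat, no gene passed between SC25 and SC100: the differences were -1.32 for RS2 (SE 1.04), 0.93 for RS3 (SE 0.73) and -0.87 for MIPS1 (SE 0.44), and 0.0208% of all models passed. The difference between the tissues in their change from the 25 mg to the 100 mg stage, tested as an interaction, passed for 0 of 3 genes and for 0.0981% of models. MIPS1 passed between SC25 and SC100 without SC25 CT replicate 2 (-1.59, adjusted p = 0.0183). Without both first seed coat CT replicates, which was tried after seeing the data, that interaction passed for MIPS1 at 1.28 (adjusted p = 0.0198).

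**Figure D2:**
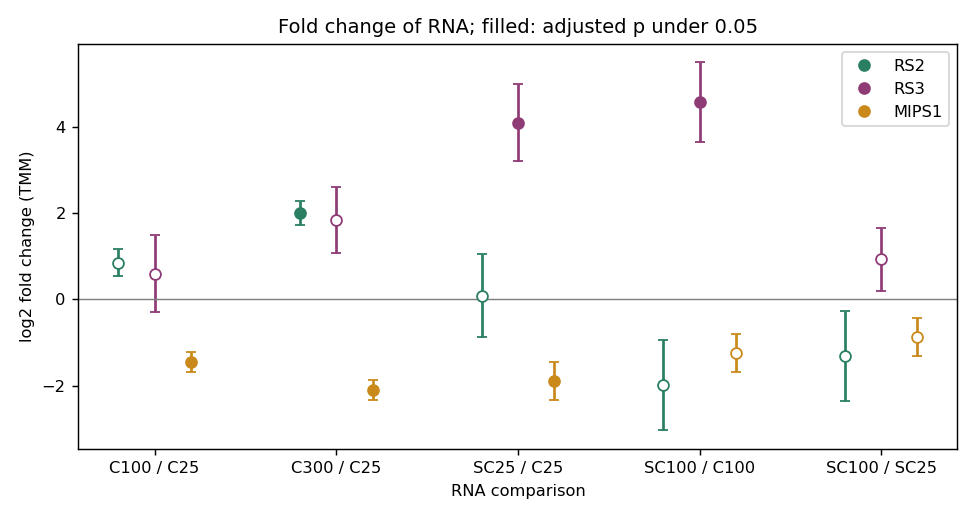
Log2 fold change of RNA (vertical axis, TMM scale, bars are 1 SE) for RS2, RS3 and MIPS1 in 5 comparisons, with filled points where the adjusted p was under 0.05. RS3 stands at 4.10 and 4.58 in the seed coat against the cotyledon, and MIPS1 and RS2 lie on opposite sides of 0 in C300 against C25, at -2.11 and 2.00.

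In footprints, compared in 1 fit of the 6 FP libraries of C25, SC25 and SC100, MIPS1 was lower in SC25 than in C25 by 2.65 on the log2 scale (SE 0.59, 6.29-fold, adjusted p = 0.0311). This was 1 of 3 genes, against 4.31% of all models. RS3 differed by 2.38 (SE 0.82, adjusted p = 0.116) and RS2 by -0.93 (SE 0.68, adjusted p = 0.442). Without C25 FP replicate 2, which leaves C25 with 0 counts of RS3, RS3 passed as well (adjusted p = 0.00334), as it did with totals (3.58, adjusted p = 0.00797) and with no filter on counts (0.00469). The MIPS1 call was lost with totals (-1.53, adjusted p = 0.341), and without SC25 FP replicate 1 (0.0649), SC25 FP replicate 2 (0.134), SC100 FP replicate 1 (0.0864) or SC100 FP replicate 2 (0.0843). Between SC100 and SC25 footprints, 0 of 3 genes passed, and 0% of 50963 models did (3615 at an unadjusted p under 0.05, 45 by DESeq2).

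Translational efficiency (TE) is the mean FP RPKM over that of the CT libraries, with 0.1 RPKM as the lowest value allowed for either. In cotyledons the TE of RS2 was 0.23 at C25 (replicate pairs 0.281 and 0.177), 0.664 at C100 and 1.00 at C300. Its replicate 1 pairs alone gave 0.281, 0.522 and 1.23. For MIPS1 it was 0.38 at C25 (pairs 0.53 and 0.256), 0.565 at C100 and 0.739 at C300. Taken alone, replicate 1 of MIPS1 gave 0.53, 0.512 and 0.713, with no rise from C25 to C100. The median of all primary models with at least 10 RPKM in CT was 0.25, 0.283 and 0.508 at the 3 stages. The log2 TE change from C25 to C300 was 2.12 for RS2 and 0.96 for MIPS1, against a median of 1.47 over the 637 primary models with at least 10 RPKM in CT at both stages. With TMM in place of totals these became 0.55, -0.59 and -0.09, so that the sign for MIPS1 and that of the median both changed with the scaling. MIPS1 lay below the median and RS2 above it on both scales. Scaling shifts all models of a library alike, so the second scale is no separate check of this order. RS2 has under 10 RPKM in CT and is not among the 637 models. The SD of log2 TE over the 2 replicate pairs of C25 was 0.472 for RS2 and 0.743 for MIPS1. No p was computed, since C300 FP is 1 library. RS3 is at the floor in cotyledons, and its TE is not given there.

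**Figure D3:**
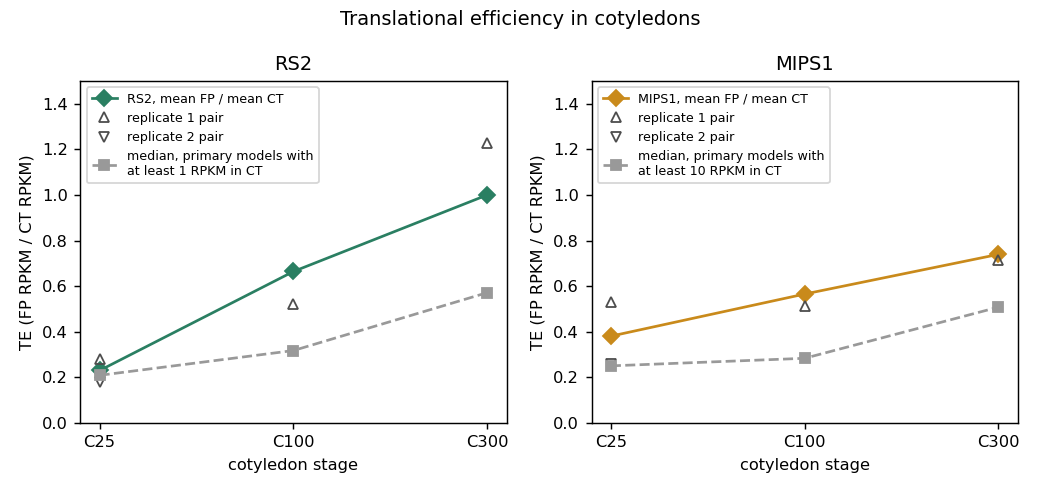
TE (FP RPKM over CT RPKM, on library totals) of RS2 and MIPS1 at 3 cotyledon stages, as diamonds, with replicate pairs as triangles and the median of primary models of at least 1 or 10 RPKM in CT as grey squares. RS2 goes from 0.23 to 1.00 and MIPS1 from 0.38 to 0.739, and the grey medians also go up.

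In seed coats the replicate pairs spread widely. The TE of MIPS1 was 0.557 in SC25 (pairs 0.667 and 0.391) and 0.602 in SC100 (pairs 0.719 and 0.442). That of RS3 was 0.603 in SC25 with pairs of 2.47 and 0.219, and 0.649 in SC100 with pairs of 1.03 and 0.365. The first RS3 pair of SC25 contains SC25 CT replicate 1, a library that stood apart, and its part in the spread was not tested. For RS2 the TE was 0.259 in SC25 and 1.26 in SC100, where the second pair gave 0.226 and the first holds the CT library with 0 counts of RS2.

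Footprints against RNA within a stage, fitted on 4 libraries each, gave no call for any of the 3 genes. At C25 the differences from the bulk of models were 0.97 for MIPS1 (SE 0.36, adjusted p = 0.103), 0.23 for RS2 (SE 0.39) and 2.41 for RS3 (SE 1.09), where 11.3% of all models passed. At SC25 0.0364% of models passed, and at SC100 0% of 49157 did (2354 at an unadjusted p under 0.05, 535 by DESeq2). With the replicate number as a block, 150 models passed at SC25 and 695 at SC100, again without the 3 genes. The difference in this ratio between C25 and SC25, an interaction over 8 libraries, passed for 0 of 3 genes and 0% of 65006 models (3088 at an unadjusted p under 0.05, 15 by DESeq2). With the block 663 models passed, none of them 1 of the 3 genes. MIPS1 at C25 passed with DESeq2 (0.00788), with C25 FP replicate 1 left out (0.0289) or replicate 2 left out (0.000154), and RS3 without C25 FP replicate 1 (0.00125). At C25, the values for MIPS1 and RS2 were -1.40 and -2.13 on the scale of totals. At SC100 the differences were 1.65 for RS2 (SE 1.33) and 0.80 for RS3 (SE 0.35). They became 7.34 and 1.07 without SC100 CT replicate 2, which leaves RS2 with 0 counts in CT.

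The other MIPS models moved with MIPS1 in cotyledons. All 4 MIPS models fell from C25 to C300, where 24% of all models passed in either direction. On the log2 scale the fall was 2.27 (SE 0.22) for Glyma.18G018600, 2.16 (SE 0.21) for Glyma.05G180600 and 2.08 (SE 0.25) for Glyma.08G138200. Their mean RNA levels in C25 were 121, 20.3 and 12.45 RPKM, against 229 RPKM for MIPS1. Reads matching more than one model were counted at every match, so near-identical copies share counts and these 4 are not independent. The ratio of MIPS1 to Glyma.18G018600 was 1.87 to 2.155 in the 6 cotyledon CT libraries and 0.994 to 1.40 in the 4 seed coat CT libraries. The ranges do not overlap, which was not counted over other pairs of models. How many reads the copies share is not known, and the difference in ratio was not tested. Of the 4 MIPS models, MIPS1 alone passed in SC25 against C25 RNA, where 9.15% of all models passed.

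The pathway around these genes was taken from the annotations as 118 primary models in 9 classes. Leaving out the 3 genes, 84 of 115 were tested in cotyledon RNA, and from C25 to C300 24 rose and 13 fell, where 24% of all models passed (7706 up and 7350 down of 62839), with a median log2 fold change of 0.09 over the 84, against -0.02 over all models. By library totals 1 of these calls changed sign.

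Galactinol synthases, which make the galactose donor of raffinose synthase, rose in all 6 of 6 models from C25 to C300, with a class median of 5.08. Glyma.19G227800, the most abundant by the mean over cotyledon and seed coat CT libraries, was at 0.311 RPKM in C25, 0.525 in C100 and 4.13 in C300 (log2 fold change 4.68, SE 0.38), and its C300 footprints were 5.36 RPKM. Glyma.10G145300, named after its values were seen, was higher in C100 and C300, at 1.03 and 4.67 RPKM (5.12, SE 0.34). UDP-glucose 4-epimerases, which supply UDP-galactose, rose in 8 of 10, led by Glyma.05G204700 with 6.57, 16.0 and 22.6 RPKM at the 3 stages (2.78, SE 0.20). No member of either class fell, where 24% of all models passed in either direction. As with the MIPS models, a read was counted at every model it matched, so like copies in these classes may share counts.

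In the raffinose synthase family, which also holds stachyose synthase and the seed imbibition proteins, 4 of 11 tested models rose and 1 fell from C25 to C300. Over all models 24% passed in either direction. With RS2 rose Glyma.05G040300 (4.67, SE 0.64), the stachyose synthase Glyma.19G217700 (3.37, SE 0.36) and the seed imbibition protein Glyma.04G190000 (2.93, SE 0.83). Glyma.13G160100 fell by 1.11 (SE 0.34). RS2 had the smallest log2 fold change of the 4 that rose, and the differences among them were not tested. From C25 to C300 its mean RNA went from 0.909 to 1.89 RPKM, the highest of the 4 at both stages. The means went from 0.0658 to 0.976 RPKM for Glyma.05G040300, 0.215 to 1.10 for Glyma.19G217700 and 0.0667 to 0.244 for Glyma.04G190000. Fold sizes from C25 levels this low are uncertain.

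Classes that handle inositol or cleave galactosides were mixed, and their counts stand against the 24% of all models that passed in either direction. Of the inositol monophosphatase family, 3 of 18 tested models fell and none rose. Its name-giving enzymes free inositol from its phosphate, but it also holds models annotated as HAL2-like or as Fructose-1-6-bisphosphatase. Of the alpha-galactosidases, which remove galactose from raffinose sugars, 3 of 9 fell and 1 rose. Of the phytate genes, inositol phosphate kinases and the MRP5 transporters, 5 of 17 rose and 3 fell, and of the inositol oxygenases 1 of 4 rose. Of the inositol transporters 0 of 8 passed.

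**Figure D4:**
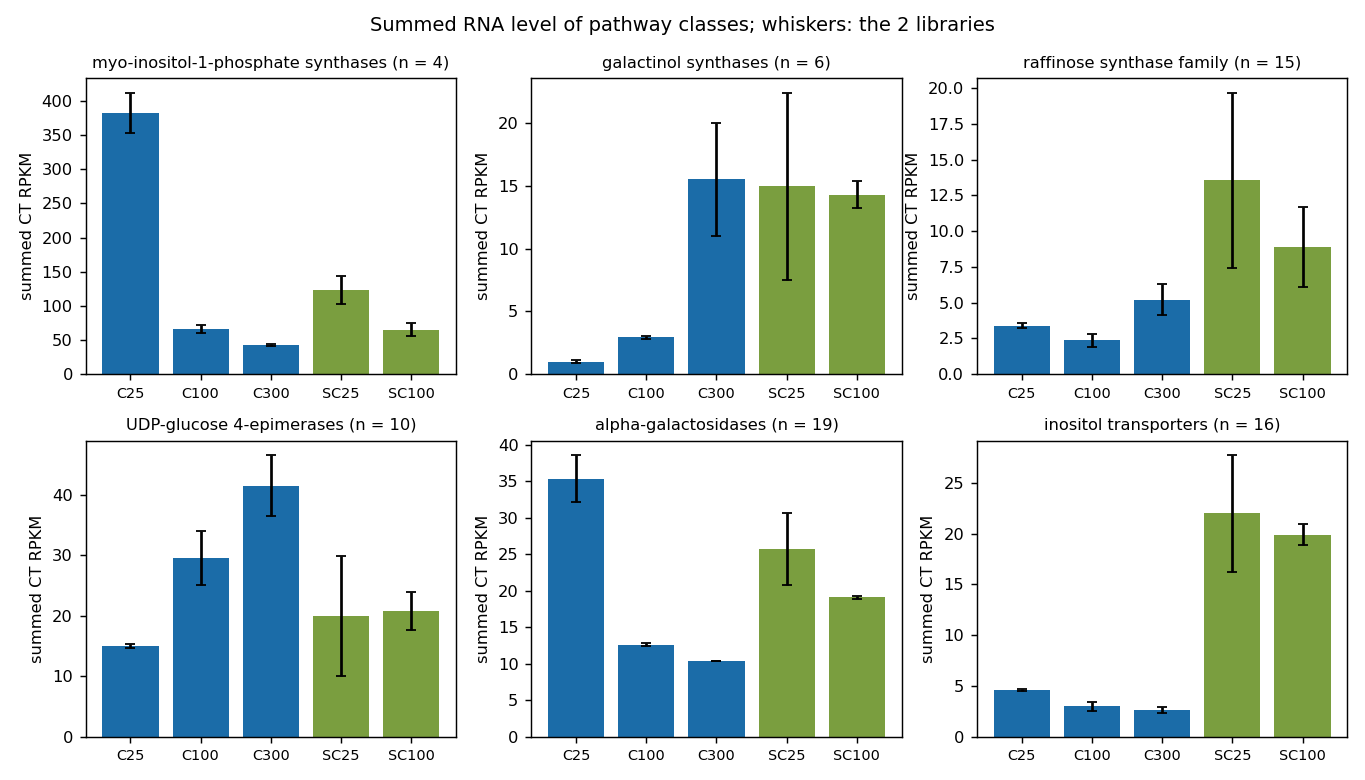
Summed CT RPKM (vertical axes, linear, from 0) of 6 pathway classes in each group, as the mean of 2 libraries with whiskers to both values, cotyledons in blue and seed coats in green. MIPS is at 383 RPKM in C25 and 42.9 RPKM in C300, while galactinol synthases are at 1.00 RPKM in C25 and 15.6 RPKM in C300.

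In the seed coat against the cotyledon, the raffinose synthase family had 3 of 11 models higher and none lower at each stage, where 9.15% of all models passed at the younger stage and 6.9% at the older. They were RS3 and the seed imbibition proteins Glyma.14G010500 (3.97, SE 0.62, in SC25 against C25, and 5.11, SE 0.77, in SC100 against C100) and Glyma.02G303300 (3.88, SE 0.74, and 4.13, SE 0.88). In C100 CT these seed imbibition models averaged only 0.0313 and 0.0308 RPKM, so the sizes of their folds at SC100 are uncertain. Glyma.14G010500 is the most abundant of the family over the CT libraries, at 3.94 RPKM (SD 2.99) in SC25 and 0.231 RPKM in C25. Of the galactinol synthases 2 of 4 tested were higher at each stage, Glyma.19G227800 by 4.45 (SE 0.56) and Glyma.03G229800 by 4.51 (SE 0.76) at the younger one. Over the 96 other pathway models tested, 15 were higher and 4 lower in SC25 against C25, and 9 higher and 5 lower in SC100 against C100, against the same 9.15% and 6.9% of all models.

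By Pearson's r of log2(RPKM + 1) over the 10 CT libraries, among 12824 primary models of at least 1 RPKM on average, the models most like RS3 were Glyma.09G208300 (a xyloglucan endotransglucosylase, r = 0.996), Glyma.09G121500 (a microtubule motor family protein, 0.995) and Glyma.08G017200 (SPIRAL1-like1, 0.995). Their mean RNA levels were at most 0.160 RPKM in cotyledons and 2.18 to 3.83 RPKM in seed coats. Those most like MIPS1 were Glyma.02G222400 (an aldolase family protein, 0.989), Glyma.08G005600 (a calcium-dependent protein kinase, 0.988) and Glyma.13G045000 (a plastid glucose translocator, 0.988). Those most like RS2 reached 0.915 (Glyma.18G262500, pectin methylesterase 31), 0.89 (Glyma.17G041500) and 0.877 (Glyma.19G113000, tubulin alpha-3). RS2 had 0 counts in SC100 CT replicate 1 and at most 81 in any library, and the part of this in its r was not tested. The libraries share depth and groups of 2, and no p was computed.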

How the data were processed

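The authors aligned trimmed reads to soybean cDNA models (Wm82.a2) with Bowtie version 1, allowing no mismatch and several alignments, each counted at its model, and removed reads on ribosomal DNA models. The deposited counts are per model, not normalised, and replicates were not pooled. RPKM, TE and all tests were computed here from those counts. Tests used edgeR 4.0.16 (R 4.3.3), with TMM, a minimum of 10 counts over all libraries in a fit, and Benjamini-Hochberg adjustment over all models tested, with a threshold of 0.05. DESeq2 1.42.0, library totals, other filters, a replicate block and leaving out each library were alternatives. Groups came from the labels. Named models were the 3 loci, the pathway list by annotation, its most abundant model per class and counts of 5 or fewer, and the 3 models most alike. The members and lists were chosen with earlier results of these data known, and the marker lists came from the study's tables. The study's methods divide 1 ground sample between total RNA and footprints, so same-numbered CT and FP libraries of a stage were taken as pairs for the block. Their deviations from the group means correlated at 0.0315 (C25), 0.278 (SC25) and 0.143 (SC100). Python 3.11.15, numpy 2.4.6, pandas 2.3.3 and matplotlib 3.10.9 were used.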

Additional observations from a re-analysis of the deposited data

How the results depend on the processing

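The values here are how many of the 3 genes passed. With no filter on counts it became 2 in C100 against C25 and 2 in SC25 against C25 footprints. With at least 10 counts in every library, where RS2 and RS3 are not tested, it became 1 in SC25 against C25 RNA and 0 in SC100 against C100. With primary models only it became 1 in SC25 against C25 RNA. For FP against CT at C25 it became 1 with DESeq2 and 2 with library totals (RS2 at -2.13 and MIPS1 at -1.40, both opposite in sign to the TMM values). Without both first seed coat CT replicates, tried after seeing the data, it became 2 in SC100 against C100 and 1 in the tissue by stage interaction. Leaving out 1 library gave 1 to 2 in C100 against C25, 0 to 1 in C300 against C100, 0 to 2 in SC25 against C25 RNA, 1 to 2 in SC100 against C100, 0 to 1 in SC100 against SC25 RNA, 0 to 1 in the interaction, 0 to 2 in SC25 against C25 footprints, 0 to 2 in FP against CT at C25 and 0 to 2 at SC100. A group left with 1 library is assumed to vary like the others. The log2 TE change was 0.549 (TMM) and 0.835 (without the 1% most abundant models) for RS2, and -0.59 and -0.298 for MIPS1. Causes other than the named construction were not tested.

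Across stages and tissues the replicate number was not taken as a pairing, since same-numbered libraries deviated together in some groups only (r from -0.229 to 0.278 over all pairs of groups). The replicate block changed none of the counts of genes that passed: it left 2 of 3 in C300 against C25 (RS2 1.99, MIPS1 -2.11). Over all models it moved the calls from 14 to 213 in SC100 against SC25 RNA, from 66 to 253 in the interaction and from 2195 to 3619 in SC25 against C25 footprints. RS2 passed in SC100 against C100 where SC100 was left with the CT library at 0 counts. Depth limits RS2 and RS3, which had at most 81 counts in any library.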

Other observations

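Some pathway genes outside the raffinose steps differed between the tissues, each the most abundant of its class by mean CT RPKM. Glyma.09G087400, an inositol transporter model, was at 0.101 RPKM in C25 CT and 7.43 RPKM in SC25 CT (log2 fold change 6.05, SE 0.56, edgeR adjusted p = 8.373e-06), and at 0.17 and 6.38 RPKM in C100 and SC100 (4.31, SE 0.52, adjusted p = 9.338e-05). Glyma.06G089800, of the inositol trisphosphate kinase family, which adds phosphates to inositol phosphates, was at 2.86 RPKM in C25 and 26.5 ± 22.5 RPKM (SD, n = 2) in SC25 (3.08, SE 0.43, adjusted p = 0.000241), and differed by 1.11 (SE 0.40, adjusted p = 0.127) in SC100 against C100. Glyma.09G273400, alpha-galactosidase 1, was lower in the seed coat, at 13.8 RPKM in C25 and 2.04 RPKM in SC25 (-2.81, SE 0.57, adjusted p = 0.00499). It was at 5.41 RPKM in C100 and 0.206 ± 0.292 RPKM (SD, n = 2) in SC100 (-5.67, SE 0.73, adjusted p = 0.0001772). That SD exceeds the mean, so the size of the fold in SC100 is uncertain. Of 18 alpha-galactosidases tested, 5 were higher and 3 lower in SC25 against C25, and 3 higher and 2 lower in SC100 against C100. Over all models 9.15% and 6.9% passed.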
